A study of Homo sapiens with 14 samples.

Results

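The comparison described here sets the control libraries of a second library set against those of a first, in 3 human ovarian cancer cell lines. All of them came from cells kept for 72 h in 2.5 µM GSK-J5, the isomer used as the inactive control of GSK-J4, which inhibits the histone H3 lysine 27 demethylases KDM6A and KDM6B. Libraries were chosen by their labels alone: replicate 3 of OVCAR-3, CAOV3 and SKOV3 formed the second set (3 libraries), and replicates 1 and 2 of the same lines formed the first (6 libraries). These 9 libraries belong to 6 of the 14 samples of the series, which holds 22 libraries in all.

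The labels describe the sets differently in several ways at once. For the second set they name the RNeasy Plus kit, a library made after poly(A) enrichment, media with foetal bovine serum from Thermo Fisher Scientific, and a protocol text that gives the treatment as 48 to 72 h. For the first set they name the RNeasy mini kit, a eukaryotic cDNA library with no selection step given, media from Life Scientific, and treatment in stripped media for 48 h and 72 h. OVCAR-3 was grown in RPMI medium, CAOV3 in DMEM/F12 and SKOV3 in McCoys medium in both sets, and the dose was the same. Kit, library description and medium all changed with the set, so they cannot be told apart here. Whether replicates were grown apart is not given, so the error behind each p-value may be technical only. Each line had 1 second-set control library.

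The contrast asks how far control libraries of the same line, compound, dose and labelled time differ from one set to the other. Poly(A) enrichment captures RNAs that end in a run of adenosines. Most mRNAs and the mRNAs of the mitochondrial genome carry such a tail, whereas 7SL RNA, the RNA backbone of the signal recognition particle that guides secretory proteins to the endoplasmic reticulum, and the replication-dependent histone mRNAs do not. Cells also answer their medium: sterol supply sets the transcription of cholesterol synthesis genes, and amino acid shortage or stress raises the targets of the transcription factor ATF4.

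Total counts ran between 24037007 and 33919587 over the 9 libraries. Levels below are counts-per-million (CPM) values scaled by edgeR's trimmed mean of M-values (TMM-scaled CPM), and fold changes are log2 values of the second over the first set. Library names were set beside marks of the lines. ERBB2, the receptor gene amplified in SKOV3, was at 2596 CPM or more in SKOV3 and at 224.5 CPM or less in the other lines. PAX8 stood at 666.1 CPM in the second and 658 and 634.8 CPM in the first OVCAR-3 libraries. Other marks of OVCAR-3 were lower in its second set: WT1 (-1.47), MUC16 (-0.86) and CCNE1 (-0.81). No mark of CAOV3 alone is given. Replicates 1 and 2 differed by more than sampling noise, with a chi-square per gene of 9.75 in OVCAR-3, 12.6 in CAOV3 and 14.1 in SKOV3, so each was counted as a library of its own.

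Low counts were uneven between libraries, which bears on genes named below at a low level. In OVCAR-3, 266 genes had exactly 1 count in the second-set library, against 2339 and 2472 in the first-set libraries. The order was the other way round in CAOV3 (2108 genes in the second set, 380 and 277 in the first), and in SKOV3 it was 1270 against 764 and 524. Genes with at least 10 counts numbered 16492 in the second and 16444 and 16504 in the first OVCAR-3 libraries, 15850 against 16484 and 16739 in CAOV3, and 15258 against 16179 and 16306 in SKOV3. In OVCAR-3, 124 genes had no count in the second-set library but at least 20 in both first-set libraries, and 6 genes showed the opposite. Among the 124, PCDH10, a protocadherin gene, was at 0 in the second-set OVCAR-3 library and at 3.31 and 2.48 CPM in the first-set ones, against 50.4, 42.3 and 51.8 CPM in the 3 SKOV3 libraries.

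**Figure D1:**
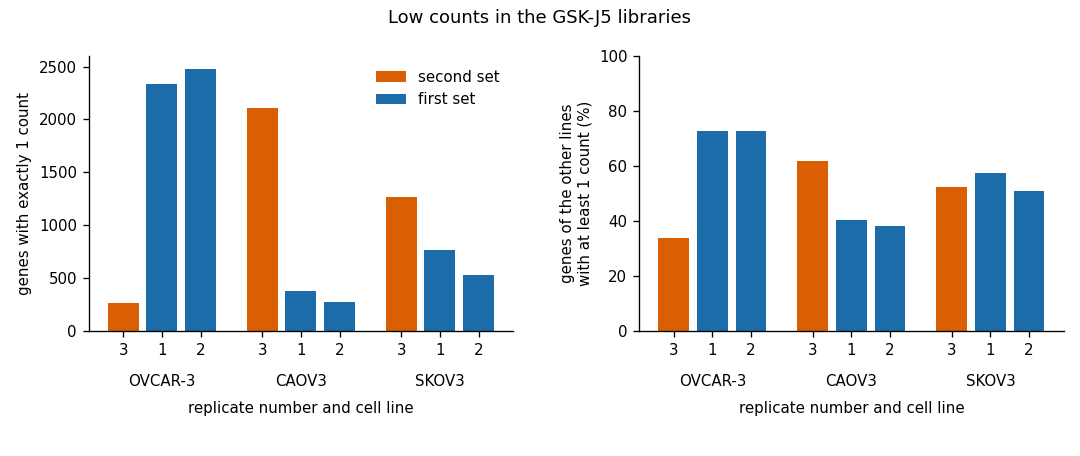
Bars give, for each of the 9 GSK-J5 libraries, the number of genes with exactly 1 count (left, linear axis from 0) and the percentage of genes of the other lines with at least 1 count (right), second set in orange and first set in blue. Genes of the other lines are those above 20 CPM in every control library of another line and below 1 CPM in all 3 of the line shown: the OVCAR-3 second-set library held 34.0% of 141 such genes and the first-set ones 73% each.

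Of 141 genes that were active in CAOV3 or SKOV3 and below 1 CPM in every OVCAR-3 control library, 48 (34.0%) had a count in the second set and 103 (73%) in each first-set library. In CAOV3 the corresponding shares were 61.8% of 131 genes in the second set, and 40.5% and 38.2% in the first. In SKOV3 they were 52.3% of 262 genes against 57.6% and 51.1%. Whether spill between libraries or a threshold on low counts played a part was not tested. Results are therefore also given for genes at 5 CPM or more in the line.

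The first question was which genes moved with the set in all 3 lines alike. With the cell line as a block, 6 of 19079 genes passed an adjusted p of 0.05 in edgeR's quasi-likelihood test with Benjamini-Hochberg adjustment (0.0314% of the genes tested). All 6 were lower in the second set and none was higher. At an unadjusted p of 0.05, 2256 genes (11.8%) passed, 1119 of them higher and 1137 lower. The block fit counts any difference that varies between lines as spread, and the test of that variation follows further on. Other settings gave other counts: 516 genes in DESeq2, 163 in limma voom, 0 without the SKOV3 libraries, and 311 without the second-set CAOV3 library.

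Genes of small mitochondrial and splicing proteins were among them. NDUFB1, a small accessory subunit of complex I, stood at 14.02 CPM in the second and 31.6 and 33.0 CPM in the first OVCAR-3 libraries. In CAOV3 it had 29.3 CPM in the second set against 83.8 and 86.1 CPM in the first, and in SKOV3 9.08 against 29.1 and 30.8 CPM. The second-set library was lowest in every line with no overlap, and the gene fell by 1.48 on the log2 scale (SE 0.128, 95% interval -1.76 to -1.19, adjusted p = 0.00421 in edgeR, lower in 3 of 3 lines). NDUFA1, another complex I subunit, had 37.1 CPM in the second and 64.9 and 65.9 CPM in the first OVCAR-3 libraries, 40.4 against 69.6 and 76.7 CPM in CAOV3, and 29.8 against 50.1 and 52.4 CPM in SKOV3. Its change was -0.82 (SE 0.095, adjusted p = 0.0381 in edgeR), again without overlap in any line. In bulk RNA, fewer cells with a transcript and less of it per cell cannot be told apart.

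UBL5, a small ubiquitin-like protein that acts in mRNA splicing (chr19:9827892-9830115), fell by 0.77 (SE 0.0943, adjusted p = 0.0381 in edgeR). It had 92.0 CPM in the second against 161.4 and 148.7 CPM in the first OVCAR-3 libraries, 92.9 against 146.4 and 141.8 CPM in CAOV3, and 63.1 against 119.5 and 122.6 CPM in SKOV3. NDUFB1, NDUFA1 and UBL5 have coding sequences of 315, 210 and 219 bases. Of 38 nuclear genes of oxidative phosphorylation in the list, which holds NDUFA1 but not NDUFB1, 1 was called lower and none higher. At an unadjusted p of 0.05, 13 were lower and 1 was higher, and in 10 the second-set library was below both first-set libraries in all 3 lines (background 5.58% of all genes). The list's median was -0.12, against 0.00 over all genes tested. It was not low in every line: the medians were -0.34 in OVCAR-3, -0.24 in CAOV3 and 0.09 in SKOV3. Those of all genes were -0.13, 0.00 and 0.00. ATP5F1E, the epsilon subunit of ATP synthase, was near the threshold (-0.83, adjusted p = 0.0557 in edgeR), with 129.4 CPM in the second against 207.1 and 214.1 CPM in the first OVCAR-3 libraries.

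The other called genes were of different kinds. RPL21P16 (chr10:120354701-120355183) and HNRNPA1L3 are processed copies of RPL21 and HNRNPA1, so how reads were shared with the parent genes is uncertain. RPL21P16 fell by 1.57 (SE 0.187, adjusted p = 0.0381 in edgeR), with 5.54 CPM in the second against 14.6 and 19.1 CPM in the first OVCAR-3 libraries. Its parent RPL21, a ribosomal protein gene, did not pass the test (0.29, adjusted p = 0.392 in edgeR). HNRNPA1L3 fell by 1.08 (SE 0.138, adjusted p = 0.0472 in edgeR), while HNRNPA1, an RNA-binding protein gene, stood at -0.20 (adjusted p = 0.504). PI16, a peptidase inhibitor gene, carried the largest change (-9.12, SE 0.463, adjusted p = 5.41e-05 in edgeR) but came from SKOV3 alone: it had 0.173 CPM in the second set against 111.3 and 98.6 CPM in the first, and at most 0.142 CPM in any OVCAR-3 or CAOV3 library.

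**Figure D2:**
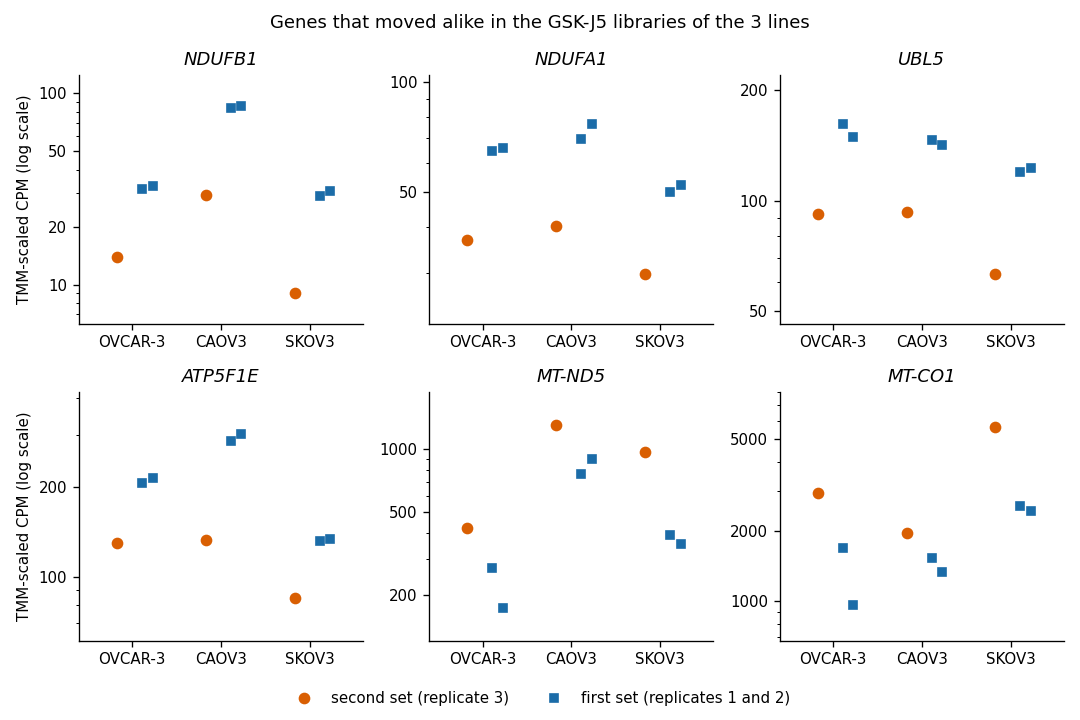
TMM-scaled CPM on a log axis for 6 genes in the GSK-J5 libraries, by cell line, with the second-set library (orange circle) left of the 2 first-set libraries (blue squares). NDUFB1, NDUFA1, UBL5 and ATP5F1E were below both first-set libraries in every line, and MT-ND5 and MT-CO1 above both.

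Differences also varied with exonic length, taken as all exonic bases of a gene over its transcripts. In the shortest decile of 19047 genes with an exonic length (up to 1047 bases), the median log2 difference was -0.244, while the deciles from the fourth to the longest lay between 0.002 and 0.042. The shortest decile was the lowest of the 10 in each line, at -0.298 in OVCAR-3, -0.174 in CAOV3 and -0.171 in SKOV3. Among 14791 protein-coding genes, 12.7% of the decile with the shortest coding sequence (up to 567 bases) had the second-set library below both first-set libraries in all 3 lines, against 3.25% to 6.56% in the other deciles and 5.58% of all genes. In the same decile 5.27% were above in all 3 lines, against 6.22% to 9.40% in the others and 6.61% of all genes. The median of this decile was the lowest of the 10 in OVCAR-3 (-0.16) and CAOV3 (-0.125). In SKOV3 it was -0.017, and the decile with the longest coding sequence was lowest, at -0.05. Coding length was chosen as a measure after the exonic lengths had been seen. By exonic GC content the medians over all lines lay between -0.022 and 0.020, but those by line spread further: from -0.122 in the second decile to 0.081 in the decile of highest GC in SKOV3, from -0.049 in the eighth to 0.092 in the decile of lowest GC in CAOV3, and from -0.227 in the decile of highest GC to -0.09 in the fourth in OVCAR-3.

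**Figure D3:**
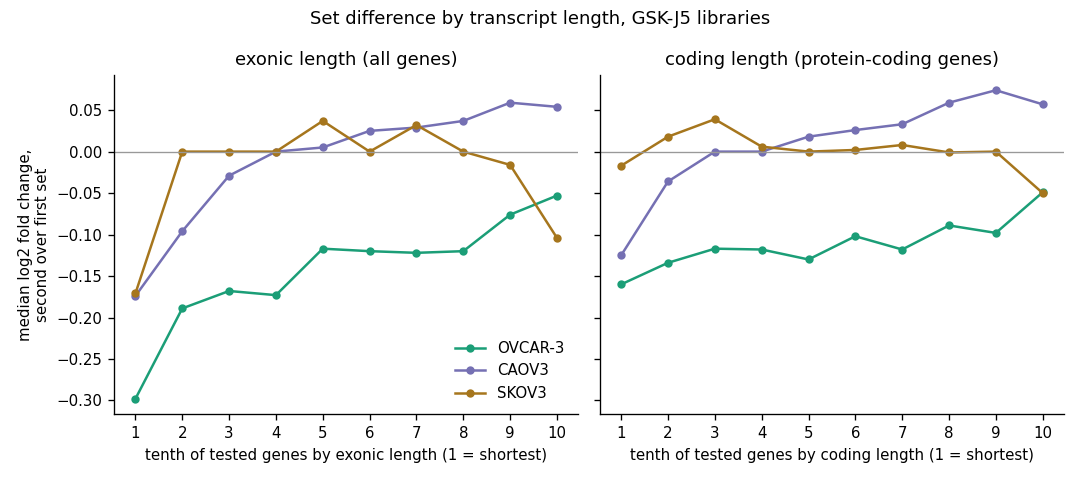
Median log2 fold change, second over first set, in deciles of the tested genes by exonic length (left, all genes) and by coding length (right, protein-coding genes), 1 line per cell line. The shortest decile by exonic length was at -0.298 in OVCAR-3, -0.174 in CAOV3 and -0.171 in SKOV3.

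Processed pseudogenes, intronless copies of mRNAs that are themselves short, had a median of -0.32 over 916 genes tested, with 151 lower and 15 higher at an unadjusted p of 0.05. Ribosomal protein genes, also short by coding sequence, split by line. Of 75 tested, 15 fell and none passed as higher in CAOV3, whereas 35 rose and 5 fell in SKOV3 and 15 rose and 4 fell in OVCAR-3. Over all genes tested by line, 0.129% rose and 0.516% fell in CAOV3. The shares were 11.1% and 9.46% in SKOV3, and 3.54% and 8.21% in OVCAR-3. RPS29, one of the smallest proteins of the small subunit, had 85.4 CPM in the second against 239.3 and 263.7 CPM in the first CAOV3 libraries, and 34.5 against 126.8 and 103.8 CPM in SKOV3. In OVCAR-3 its values overlapped, at 194.3 CPM in the second and 175.6 and 223.9 CPM in the first set, and the set difference of RPS29 differed between lines (adjusted p = 0.000449, edgeR F test of the set by line terms).

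The mRNAs of the mitochondrial genome, which encode subunits of complexes I, III, IV and V, were on the high side in the second set. None of the 13 passed the adjusted threshold, but 10 were higher and 1 lower at an unadjusted p of 0.05, with a median of 0.75, and 9 lay above both first-set libraries in all 3 lines. MT-ND5, a complex I subunit, had 420.4 CPM in the second and 271.6 and 175.1 CPM in the first OVCAR-3 libraries, 1313 against 762.6 and 895.9 CPM in CAOV3, and 965.8 against 387.3 and 353.6 CPM in SKOV3. It had the smallest adjusted p of the group (1.00, SE 0.160, adjusted p = 0.0782 in edgeR), with no overlap in any line. MT-CO1, the core of complex IV, had 2920 CPM in the second and 1695 and 962.4 CPM in the first OVCAR-3 libraries and 5641 against 2579 and 2447 CPM in SKOV3. MT-ND3, the short mRNA of another complex I subunit, went the other way, at -0.72 (adjusted p = 0.273 in edgeR). The summed share of these mRNAs was 0.939% of all counts in the second and 0.722% and 0.428% in the first OVCAR-3 libraries, 1.07% against 0.804% and 0.813% in CAOV3, and 1.60% against 0.755% and 0.665% in SKOV3. The 95% Wilson intervals of all such shares were within 0.0075 percentage points, for counting error only.

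Whether the set difference itself differed between lines was tested next, with the spread taken from replicates 1 and 2 only. It did for 3967 of 20930 genes (19% of those tested, edgeR F test, adjusted p below 0.05). In OVCAR-3, 2460 genes (11.8%) passed, 741 higher (3.54%) and 1719 lower (8.21%). No gene passed there when both compounds of the line were fitted together (6 libraries). That fit has no set by compound term, so a compound difference that varies between the sets counts as spread. GSK-J4 and GSK-J5 libraries of OVCAR-3 lay 459 genes over 2-fold apart in the second set, against 6085 and 6238 in the first. The count of 0 therefore cannot decide how many of the calls hold. The median of all genes was -0.13 in that line with TMM and -0.062 with DESeq2 size factors, under which the split was 1121 higher and 1180 lower. In CAOV3, 135 genes (0.645%) passed, 27 higher (0.129%) and 108 lower (0.516%). In SKOV3, 4299 genes (20.5%) passed, 2320 higher (11.1%) and 1979 lower (9.46%). Among genes at 5 CPM or more in the line, 2023 calls were made in OVCAR-3, 128 in CAOV3 and 3873 in SKOV3. These fits by line were added after the data had been seen, and they assume that the lone second-set library varies like the first-set pairs.

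**Figure D4:**
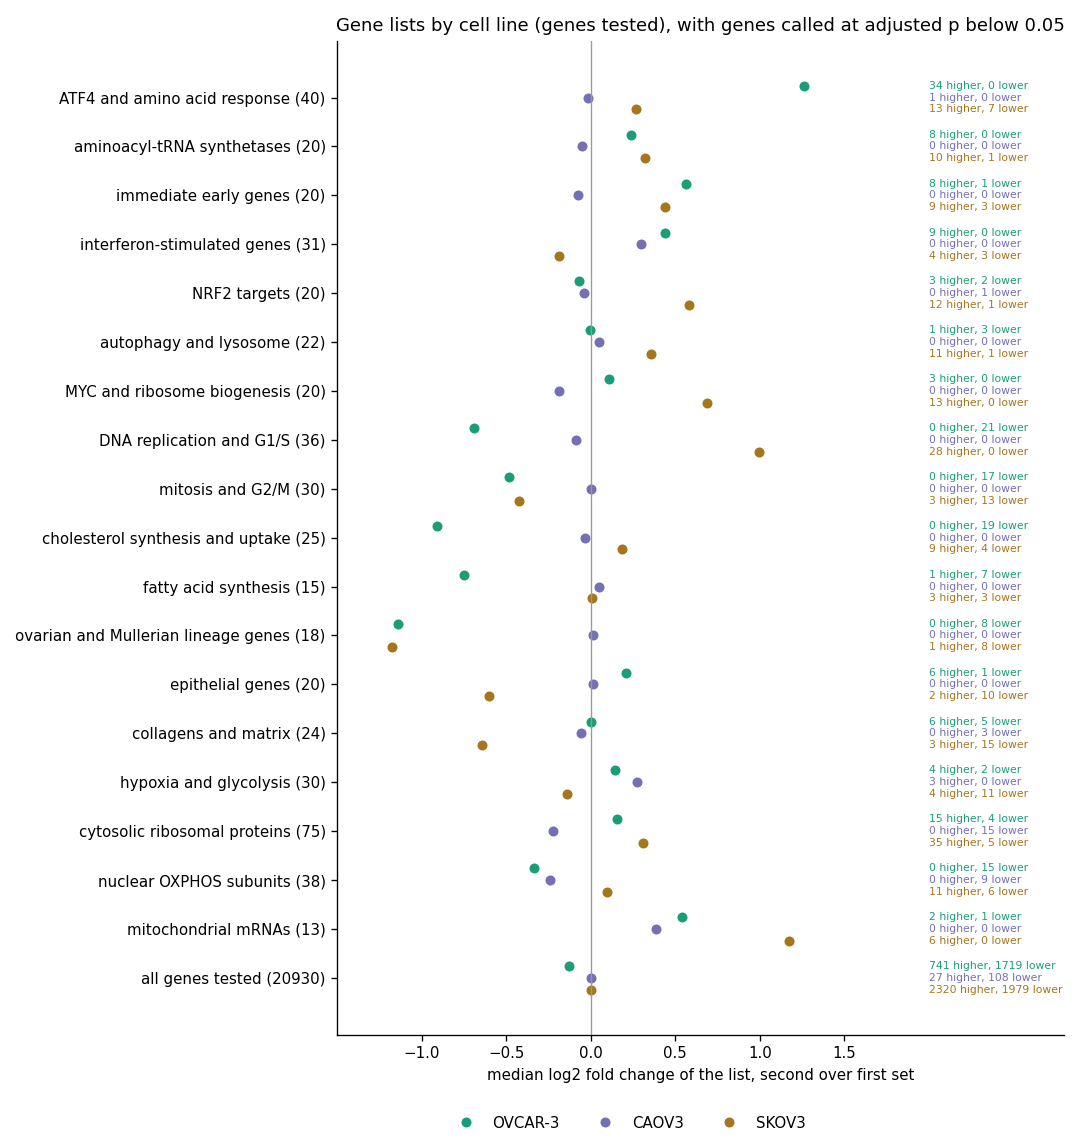
Median log2 fold change, second over first set, of 18 gene lists and of all genes tested, by cell line (coloured points). The number of genes tested is in brackets and the numbers called higher and lower at an adjusted p below 0.05 stand at the right; the CAOV3 medians stay between -0.24 and 0.39, while those of OVCAR-3 and SKOV3 spread from -1.18 to 1.26.

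The 7SL genes differed strongly between lines. RN7SL1 and RN7SL2 are near-identical copies, so how reads were shared between them is uncertain. RN7SL1 had 2.66 CPM in the second against 143.7 and 155.9 CPM in the first CAOV3 libraries, which is 56.4-fold lower. In SKOV3 it had 5.15 CPM in the second set against 220.7 and 216.1 CPM in the first, 42.4-fold lower. In OVCAR-3 the second-set value of 11.1 CPM was close to the 11.8 and 13.1 CPM of the first set, so that line showed no such gap (-0.20, SE 0.130, adjusted p = 0.369 in edgeR). The difference between lines had an adjusted p of 8.66e-08 in the edgeR F test. RN7SL2 gave 3.98 CPM in the second set against 198.5 and 180.4 CPM in the first set of CAOV3, and 3.76 against 307.6 and 264.4 CPM in SKOV3. It was called lower in OVCAR-3 as well, at 9.56 against 12.4 and 15.6 CPM (adjusted p = 0.0423 in edgeR). The first set was not uniform in OVCAR-3: outside the 9 libraries, RN7SL1 in CPM of the library total was 5.79 in the second-set GSK-J4 library of 72 h, against 104.2 in replicate 1 and 4.21 in replicate 2 of the first set. The column name of that second-set GSK-J4 library is shortened in the deposited table and was assigned to the only sample left without a column, so each of its values here rests on that assignment. Of 43 replication-dependent histone genes tested by line, whose mRNAs also lack a tail, 9 fell in SKOV3, where 9.46% of all genes did, 4 fell in OVCAR-3, a share near the 8.21% of all genes, and none passed in CAOV3. None of them passed as higher in any line.

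In OVCAR-3 the ATF4 and amino acid response genes rose together. Of 40 tested, 34 were called higher in the second set and none lower, with a median of 1.26. Over all genes tested in this line, 3.54% were called higher and 8.21% lower, with a median of -0.13. The same shares stand beside the other OVCAR-3 list counts below. TRIB3, a pseudokinase that ATF4 induces, had 202.5 CPM in the second against 40.1 and 35.9 CPM in the first set (5.33-fold). GDF15, a secreted stress cytokine (chr19:18374731-18389176), had 37.98 CPM against 1.96 and 1.62 CPM, 21.2-fold higher and the highest change in OVCAR-3 among genes at 20 CPM or more. CHAC1, which breaks down glutathione, had 87.8 CPM in the second and 21.1 and 18.5 CPM in the first set. DDIT3, a stress transcription factor, SESN2, a brake on mTORC1, and SLC7A11, the cystine transporter, rose by 2.26, 1.81 and 1.82 on the log2 scale, with adjusted p of 0.00094, 2.51e-05 and 3.04e-06 in edgeR. The transcript of ATF4 itself rose less, to 385.0 CPM against 285.8 and 262.4 CPM (0.45, adjusted p = 0.0106 in edgeR).

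In CAOV3, 1 of the 40 genes was called, as higher, and TRIB3 had 82.7 CPM in the second against 80.3 and 76.9 CPM in the first set. In SKOV3, 13 were called higher and 7 lower. TRIB3 there reached 784.0 CPM against 283.4 and 247.6 CPM, GDF15 280.6 against 71.9 and 65.2 CPM, and ATF3, a stress-induced transcription factor, 55.9 against 9.25 and 8.16 CPM, while PHGDH, the first enzyme of serine synthesis, fell to 202.9 CPM against 264.8 and 292.4 CPM. The set differences of TRIB3 and GDF15 differed between lines (adjusted p = 1.22e-05 and 1.36e-05, edgeR F test).

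Promoters of CHAC1 and ATF3 are shown as examples. Both genes rose in the second set of OVCAR-3 and SKOV3, and both promoters hold the letters TGATGNAA, the core of the element that ATF4 dimers bind. SLC3A2 also met these conditions (1.25 in OVCAR-3 and 0.76 in SKOV3) and is not shown. The motif was searched on both strands in the RefSeq promoter table for GRCh38.p14 (the window around each gene's start), and capitals mark the match. It was found in 6 of 29 list members with an entry (20.7%), in 4 of the 24 called higher in OVCAR-3 (16.7%) and in 1270 of all 35116 promoters (3.62%). CHAC1 lies on chr15:40953221-40953520 and ATF3 on chr1:212565157-212565456, both on the plus strand. A match describes the letters in this window and is not a binding site.

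CHAC1: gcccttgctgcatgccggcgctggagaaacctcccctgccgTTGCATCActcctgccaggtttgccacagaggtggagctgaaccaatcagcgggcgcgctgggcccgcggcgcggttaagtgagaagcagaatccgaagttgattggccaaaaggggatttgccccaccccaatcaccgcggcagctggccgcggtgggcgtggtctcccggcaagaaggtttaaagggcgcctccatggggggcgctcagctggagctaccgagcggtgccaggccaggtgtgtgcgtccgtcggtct

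ATF3: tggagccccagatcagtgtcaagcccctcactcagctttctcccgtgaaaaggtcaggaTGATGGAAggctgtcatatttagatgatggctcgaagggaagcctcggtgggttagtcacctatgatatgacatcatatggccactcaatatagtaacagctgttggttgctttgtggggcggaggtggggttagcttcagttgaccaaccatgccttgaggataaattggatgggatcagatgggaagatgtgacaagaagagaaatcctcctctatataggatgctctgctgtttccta

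**Figure D5:**
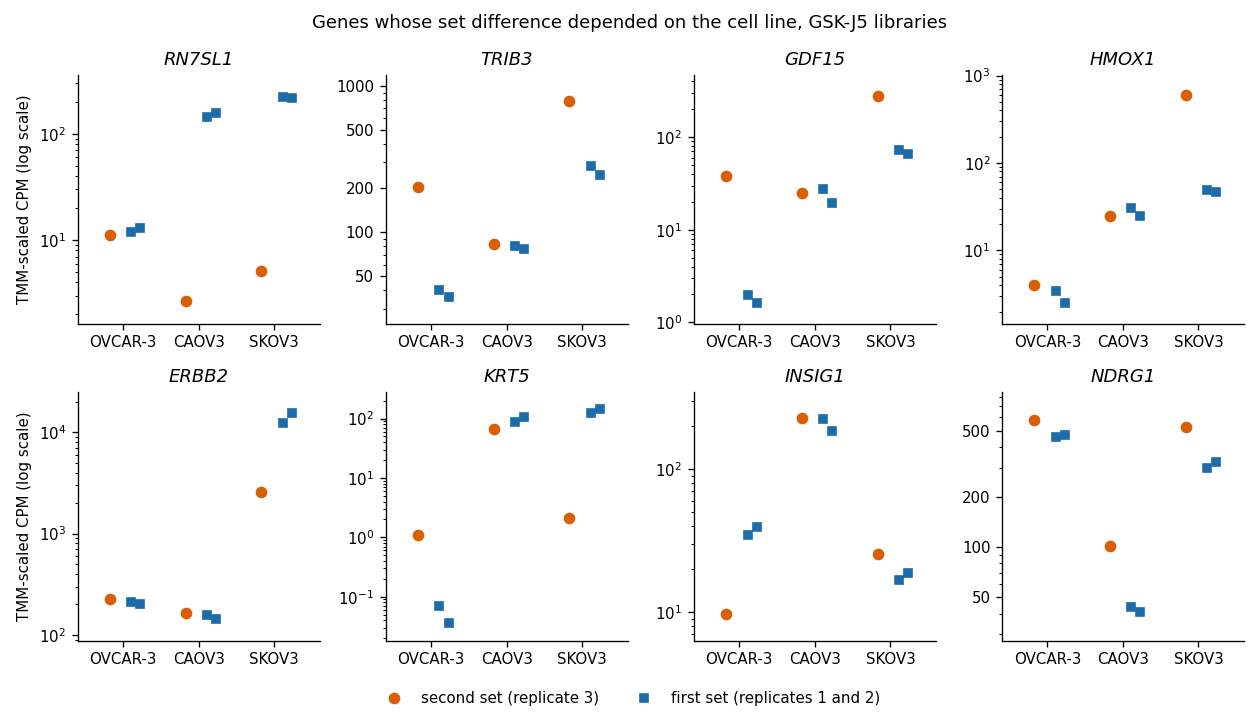
TMM-scaled CPM on a log axis for 8 genes in the GSK-J5 libraries, by cell line, with the second-set library (orange circle) left of the 2 first-set libraries (blue squares). RN7SL1 was low in the second set of CAOV3 and SKOV3 only, TRIB3 and GDF15 were high in OVCAR-3 and SKOV3, ERBB2 and KRT5 were low in SKOV3, and INSIG1 was low in OVCAR-3.

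Cholesterol genes fell in OVCAR-3. Of 25 genes of synthesis and uptake, 19 were called lower in the second set and none higher, with a median of -0.91. INSIG1, the sterol-responsive brake on SREBP, had 9.67 CPM in the second against 34.5 and 39.1 CPM in the first set, and IDI1, an isoprenoid isomerase, 9.08 against 35.7 and 31.7 CPM. HMGCS1, an early synthesis enzyme, had 86.6 CPM against 199.2 and 209.5 CPM. Fatty acid genes went with them, with 7 of 15 lower and 1 higher, and SCD, the stearoyl-CoA desaturase, fell to 272.8 CPM against 759.3 and 877.0 CPM. None of the 25 cholesterol genes passed in CAOV3. In SKOV3, 9 were higher and 4 lower, with IDI1 at 42.8 CPM in the second against 24.3 and 23.3 CPM in the first set, and 20 of the 25 differed between lines in the edgeR F test.

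Genes of DNA replication moved in opposite directions in OVCAR-3 and SKOV3. Among 36 genes of DNA replication and the G1/S step, OVCAR-3 had 21 lower and none higher (median -0.69), CAOV3 none, and SKOV3 28 higher and none lower (median 1.00). RRM2, a subunit of ribonucleotide reductase, had 132.1 CPM in the second against 269.6 and 270.0 CPM in the first OVCAR-3 libraries, and 72.0 against 25.5 and 16.4 CPM in SKOV3. PCNA, the sliding clamp of DNA polymerase, had 51.6 against 92.2 and 90.4 CPM in OVCAR-3 and 120.8 against 56.4 and 57.0 CPM in SKOV3. CCNE1, the G1/S cyclin, showed the same crossing, with 83.5 against 140.4 and 143.3 CPM in OVCAR-3 and 18.2 against 7.41 and 8.06 CPM in SKOV3. The list's median over all lines was 0.20, with no gene past an unadjusted p of 0.05, and 30 of the 36 differed between lines. Of 30 mitosis genes, 17 fell and none rose in OVCAR-3, and 13 fell and 3 rose in SKOV3. CDC20, the activator of the anaphase-promoting complex, had 64.0 CPM in the second against 133.6 and 116.6 CPM in the first OVCAR-3 libraries and 97.8 against 136.6 and 117.3 CPM in SKOV3.

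Lineage genes were lower in OVCAR-3 as well. Of 18 ovarian and Müllerian lineage genes, 8 fell and none rose in the second set. WT1, a transcription factor of serous ovarian cancers, had 77.9 CPM in the second against 213.2 and 207.6 CPM in the first set (-1.47, SE 0.140, adjusted p = 0.000187 in edgeR). PAX8, another lineage factor, did not pass (adjusted p = 1 in edgeR). Among genes at 20 CPM or more, ALDH1A1, a retinaldehyde dehydrogenase, fell to 22.3 CPM against 103.0 and 109.3 CPM, and OTUD1, a deubiquitinase, to 17.7 CPM against 76.7 and 75.6 CPM. LAMP3, a lysosomal membrane protein, and MAP1B, a microtubule-associated protein, rose to 35.1 CPM against 3.13 and 3.599 CPM and to 31.0 CPM against 3.09 and 2.95 CPM. TMSB4XP8, a processed copy of TMSB4X, fell by 2.79 on the log2 scale, while TMSB4X itself stood at 0.08 in the fit for OVCAR-3. In SKOV3, LAMP3 (1.80) and MAP1B (0.53) were also higher, and ALDH1A1 (-0.94) and TMSB4XP8 (-0.87) also lower, whereas OTUD1 was higher (0.85). Interferon-stimulated genes (9 of 31) and immediate early genes (8 of 20, with 1 lower) rose in part, with IFI6 at 35.0 CPM in the second against 12.7 and 10.3 CPM in the first set.

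In SKOV3 the second-set library held less mRNA of ERBB2, the receptor tyrosine kinase HER2 (chr17:39687914-39730426). The gene had 2596 CPM in the second set against 12300 and 15370 CPM in the first, 5.33-fold lower (-2.41, SE 0.129, adjusted p = 5.21e-07 in edgeR). In OVCAR-3 and CAOV3 the gene did not pass, at 224.5 CPM in the second against 210.4 and 204.2 CPM in the first set, and at 164.3 against 156.5 and 144.5 CPM. The difference between lines had an adjusted p of 6.42e-06 in the F test. GSK-J4 libraries of SKOV3, which are other libraries, gave 2423 CPM of ERBB2, of the library total, in the second set against 11790 and 12960 in the first. Of 11 genes listed as marks of these lines, ERBB2 included, 4 fell and 2 rose in SKOV3, the same counts as in OVCAR-3, and none passed in CAOV3.

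Of 20 epithelial genes, 10 fell and 2 rose in the second set of SKOV3. Outside that list, KRT5, a basal keratin, had 2.08 CPM against 123.1 and 144.3 CPM, 64.4-fold lower. Its partner KRT14 had 1 count in the second-set library, against 82.1 and 96.7 CPM in the first set, a ratio of 2070, first over second, with a 95% counting interval of 372 to 81900. Among the listed genes, KRT19, a simple-epithelial keratin, had 43.5 against 650.8 and 930.0 CPM, and EPCAM, an epithelial adhesion molecule, 3.72 against 16.04 and 20.8 CPM. ITGB4, the hemidesmosome integrin, which is not listed, had 64.5 against 430.6 and 484.3 CPM. The other listed keratins changed less or did not pass: KRT8 had 565.6 against 722.2 and 763.6 CPM (-0.39, adjusted p = 0.00533 in edgeR), while KRT7 and KRT18 did not pass, at 0.25 and 0.18 on the log2 scale. CLDN4, a tight-junction claudin, was one of the listed genes that rose, to 14.2 CPM against 2.04 and 2.30 CPM. Lineage genes fell in 8 of 18 cases, with 1 higher.

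Matrix and secreted genes changed in SKOV3 as well, with 15 of 24 collagen and matrix genes lower and 3 higher. COL1A2, a chain of type I collagen (chr7:94394561-94431232), had 2.68 CPM in the second against 156.0 and 171.4 CPM in the first set, 61-fold lower, whereas COL1A1, its partner chain, had 490.3 against 447.9 and 362.2 CPM and did not pass (adjusted p = 0.147 in edgeR). IGFBP5, which binds insulin-like growth factors, had 8.39 against 262.6 and 280.4 CPM, SLPI, a protease inhibitor, 34.6 against 430.8 and 464.0 CPM, and BGN, a matrix proteoglycan, 0.476 against 30.7 and 36.6 CPM. COL6A3, a type VI collagen chain, went the other way, with 60.6 CPM against 1.73 and 1.86 CPM.

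Of 20 NRF2 targets, genes of the response to oxidants, 12 rose and 1 fell in the second set of SKOV3. HMOX1, the haem-degrading enzyme induced by NRF2 and oxidants, had 595.8 CPM against 49.0 and 46.9 CPM, 12.4-fold higher (3.64, SE 0.137, adjusted p = 5.01e-08 in edgeR). In OVCAR-3 it had 3.99 against 3.41 and 2.48 CPM and in CAOV3 25.0 against 30.8 and 24.9 CPM. NQO1, a quinone reductase, was another that rose, with 1251 against 771.1 and 740.0 CPM. UPP1, a uridine phosphorylase, reached 150.9 CPM against 16.9 and 15.8 CPM. MYC and ribosome biogenesis genes rose in 13 of 20 cases with none lower, and MYC itself had 139.2 against 62.9 and 51.4 CPM. Autophagy and lysosome genes rose in 11 of 22 with 1 lower, and hypoxia and glycolysis genes fell in 11 of 30 with 4 higher. Of 13 heat shock genes, 3 were higher and 1 was lower, and of 22 genes of the unfolded protein response, 3 were higher and 4 lower. Over all genes tested in SKOV3, 11.1% were higher and 9.46% lower.

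CAOV3 differed least between the sets. The 108 genes that fell included 15 ribosomal protein genes, 9 genes of oxidative phosphorylation, 17 processed pseudogenes and both 7SL genes. RPL38, a ribosomal protein of the large subunit, had 150.1 CPM in the second against 375.5 and 415.5 CPM in the first set, and MT2A, a metallothionein, 2239 against 3612 and 3648 CPM. The 27 that rose included 3 hypoxia genes of 30 listed. NDRG1, a hypoxia-induced gene, had 102.2 CPM in the second against 43.5 and 40.9 CPM in the first set (1.22, SE 0.0906, adjusted p = 0.00017 in edgeR). STC1, a secreted glycoprotein hormone, had 139.7 against 59.2 and 64.9 CPM, and P4HA1, a collagen prolyl hydroxylase, 156.0 against 90.0 and 91.2 CPM. NDRG1 also rose in SKOV3 (adjusted p = 0.000103 in edgeR) but did not pass in OVCAR-3 (adjusted p = 0.0632 in edgeR), whereas STC1 and P4HA1 fell in SKOV3. ARRDC3, an alpha-arrestin, rose to 101.6 CPM against 50.8 and 52.7 CPM.

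The target enzymes of GSK-J4 differed little between the sets. KDM6B had 114.8 CPM in the second and 109.1 and 112.2 CPM in the first OVCAR-3 libraries, 60.5 against 54.7 and 49.3 CPM in CAOV3, and 48.1 against 34.1 and 35.8 CPM in SKOV3. Its difference over the lines was 0.25 (SE 0.103, adjusted p = 0.39 in edgeR), and it passed in SKOV3 (0.47, adjusted p = 0.0129 in edgeR), though not as a difference between lines (adjusted p = 0.144 in edgeR). KDM6A had 25.5 against 25.6 and 26.6 CPM in OVCAR-3, 24.9 against 26.8 and 22.5 CPM in CAOV3, and 34.3 against 43.2 and 43.7 CPM in SKOV3, and passed in no line. Of 13 KDM6 and PRC2 genes, 2 fell in OVCAR-3, where 8.21% of all genes did. In SKOV3, 4 of them rose, where 11.1% of all genes did, and none passed in CAOV3. EZH2, the PRC2 methyltransferase, had 30.7 against 33.8 and 35.7 CPM in OVCAR-3 and passed in no line.

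The rule that named genes for the difference between lines picked low-level genes for the most part. In OVCAR-3 it named KRT14, KRT5 and SMN1 at the high end and HOXC13, TMEM158 and SCN4B at the low end. SCN4B, a sodium channel subunit, had no count in the second set against 3.16 and 2.45 CPM in the first, at least 25.4-fold lower against a floor of 3 counts, and TMEM158 was at least 12.9-fold lower. In CAOV3 it named PCDHB9 and LINC01127, both without a count in the first set and at 0.471 and 0.642 CPM in the second, as well as ENSG00000272384, EVC2, FOXS1 and CST7. In SKOV3 it named VSIG2, LTK and HOXC13, which had no count in the first set and between 0.13 and 0.39 CPM in the second, and KRT14, ADGRF1 and CPP. ADGRF1, an adhesion receptor, had no count in the second set of SKOV3 against 14.7 and 13.7 CPM in the first, at least 109-fold lower. The part of the uneven low counts in these values was not tested. The genes at 20 CPM or more named above were chosen after the values had been seen.

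Markers of other cell types varied with the line. None of 8 erythroid markers reached 1 CPM in any of the 9 libraries. Leukocyte markers summed to 118.1 CPM in the second and 58.1 and 60.4 CPM in the first CAOV3 libraries, with 2 of 12 genes at 1 CPM or more, and to at most 6.2 CPM in the other lines, with PTPRC at 0 in all CAOV3 libraries. Fibroblast markers summed to 501.7 CPM in the second and 649.1 and 587.1 CPM in the first SKOV3 libraries, with 5 of 10 genes at 1 CPM or more in the second and 7 in each first-set library. COL1A1 held most of that sum, and 3 of the 10 fell in SKOV3, COL1A2 among them, with a list median of -2.04. THY1 was below 1 CPM. Endothelial markers summed to at most 12.4 CPM in any library.

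Distances between whole libraries are given as a description. Between the second-set library and replicates 1 and 2 of its line, 979 and 1028 genes lay over 2-fold apart in OVCAR-3, on log2(CPM + 1) of the library totals, against 74 between replicates 1 and 2. In SKOV3 the numbers were 1467 and 1581 against 91, and in CAOV3 213 and 237 against 245. Counting only genes at 5 CPM or more in either library, they were 536 and 581 against 39 in OVCAR-3, 1036 and 1167 against 14 in SKOV3, and 118 and 109 against 34 in CAOV3. Set beside the OVCAR-3 GSK-J5 libraries of 48 h, the second-set library stood 965 and 989 genes apart. The control libraries of 48 h and 72 h within the first set were 11 to 158 genes apart.

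The same contrast in the GSK-J4 libraries uses none of the control libraries. With the line as a block, none of 18856 genes passed (0% called) in edgeR, with 2614 at an unadjusted p of 0.05 (13.9%), 771 in DESeq2 and 8 in limma voom. The 5 genes called in the controls apart from PI16 were all lower in the GSK-J4 libraries too, with NDUFB1 at -1.90 (SE 0.267, adjusted p = 0.152 in edgeR), RPL21P16 at -2.05, NDUFA1 at -1.07, HNRNPA1L3 at -1.03 and UBL5 at -0.99. Mitochondrial mRNAs had a median of 1.10, and 9 of 13 were higher at an unadjusted p of 0.05. In OVCAR-3 their share was 0.798% in the second-set GSK-J4 library, against 0.280% and 0.207% in the first set. Those first-set shares were below the 0.722% and 0.428% of the first-set GSK-J5 libraries. A response to GSK-J4 that differed between the sets cannot be told apart from a set difference in these values. Of 2203 genes at an unadjusted p of 0.05 in the controls and tested in both, 1646 had the same direction in the GSK-J4 libraries. Only 633 of the 2203 also reached an unadjusted p of 0.05 there, 619 of them in the same direction. Over all 18141 genes tested in both, the log2 fold changes correlated at 0.349 (Pearson). The share of all these genes with the same direction is not given. Genes of a library are not independent replicates, and libraries of 1 line and set may have been handled together.

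By the number of genes over 2-fold apart, GSK-J4 and GSK-J5 libraries lay closer in the second set than in the first, in each line. In OVCAR-3 the GSK-J4 and GSK-J5 libraries lay 459 genes over 2-fold apart in the second set, against 6085 and 6238 for the same-numbered pairs of the first. The second-set GSK-J4 library of OVCAR-3 lay 834 and 1032 genes from the first-set GSK-J5 libraries, but 4408 and 4537 from the first-set GSK-J4 libraries. It was thus nearer to the controls than to the first-set libraries of its own compound. The reason was not tested, and the assignment of its column, stated above, bears on these values. In CAOV3 the numbers between the compounds were 53 in the second set against 317 and 571 in the first, and in SKOV3 11 against 78 and 107. Replicates 1 and 2 of the same compound lay 74 (GSK-J5) and 121 (GSK-J4) genes apart in OVCAR-3. They lay 245 and 192 apart in CAOV3, and 91 and 89 in SKOV3. In SKOV3 the first-set distance between compounds was thus near that between replicates. The second set has no replicate distance. The set by compound term, fitted over the 18 libraries of 72 h, called none of 20252 genes (0%) in edgeR, with 1269 at an unadjusted p of 0.05 (6.27%), 3 in DESeq2 and 8 in limma voom. For GDF15 in OVCAR-3, the CPM of the library total were 108.7 with GSK-J4 and 39.8 with GSK-J5 in the second set, against 229.3 and 247.2 with GSK-J4 and 2.01 and 1.71 with GSK-J5 in the first.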

How the data were processed

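RNA-seq of 3 ovarian cancer cell lines was analysed from the counts that the authors deposited. The values are whole-number read counts per gene, 1 column per library, in 1 table per cell line. Per the submitters' processing notes, STAR, DESeq2 and GRCh38 (hg38) were used. No tool for counting, no strand setting and no annotation release is named in them. Symbols came from a separate list of gene names for 58472 of 58825 identifiers, and from GENCODE release 29 (GRCh38) for 345. Lengths and coordinates came from GENCODE release 29, and promoter sequences from RefSeq (GRCh38.p14).

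Genes passing filterByExpr (minimum count 10) were tested with edgeR 4.0.16 (quasi-likelihood, robust, TMM; R 4.3.3) with the cell line as a block, and Benjamini-Hochberg adjustment at 0.05. The set by line test took its spread from replicates 1 and 2, and fits by line used the same model. GSK-J4 libraries of 72 h were fitted the same way, and all 18 libraries of 72 h together for the set by compound term. Alternatives were DESeq2 1.42.0, limma 3.58.1 (voom), other scaling and filters, and libraries or lines left out. The code was tested on simulated data. Total counts are in the report; Wilson intervals and the floor of 3 counts cover counting error only.

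The members and gene lists were chosen with earlier results of these data known, so the lists are not independent evidence. Genes were named by a written rule: the called genes with the highest and lowest change in the same direction in all 3 lines, the most divergent called genes of each line, and KDM6A and KDM6B. Genes named for their list, for a level of 20 CPM or for 1 line were added after the values had been seen.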

Additional observations from a re-analysis of the deposited data

Results flagged for a closer look

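The set difference differed between cell lines for 3967 genes in the edgeR F test, and the named genes among them are given here with their adjusted p of that test. No explanation was tested.

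Genes at 20 CPM or more in at least 1 set of the line were the following. RN7SL1 had 8.66e-08 and RN7SL2 5.16e-07, both lower in the second set of CAOV3 and SKOV3. HMOX1 had 1.85e-06, TNC 5.74e-05 and UPP1 3.75e-05, highest relative to the first set in SKOV3. BGN had 2.58e-06 and KRT5 7.18e-07, lower in the second set of SKOV3 and higher in that of OVCAR-3. KRT14 had 0.00145 and was lower in SKOV3. GDF15 had 1.36e-05, LAMP3 2.53e-05 and MAP1B 1.54e-06, all higher in the second sets of OVCAR-3 and SKOV3, more so in OVCAR-3. TMSB4XP8 had 0.000143 and ALDH1A1 0.0214, both lower in the second sets of OVCAR-3 and SKOV3, more so in OVCAR-3. OTUD1 had 7.56e-06, lower in OVCAR-3 and higher in SKOV3. In CAOV3, NDRG1 had 0.0014, STC1 2.03e-05 and ARRDC3 5.01e-05, all higher in the second set. NDRG1 was also higher in SKOV3 and ARRDC3 in OVCAR-3, while STC1 and ARRDC3 were lower in SKOV3. RPS27P3, a processed copy of RPS27, had 2.97e-05, lower in CAOV3 and SKOV3 and higher in OVCAR-3.

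The other genes were near 0 in at least 1 line, where low counts were uneven between libraries. SMN1, whose reads can be shared with its near-identical copy SMN2, had 0.00106. HOXC13 had 0.0038, TMEM158 0.000677, SCN4B 0.00397 and PCDHB9 0.00582. LINC01127 had 0.000773, ENSG00000272384 0.0358, EVC2 0.00907, FOXS1 0.046 and CST7 0.0432. VSIG2 had 0.00862, LTK 0.022, ADGRF1 7.56e-06 and CPP 0.00211.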

How the results depend on the processing

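The count of genes that differed over all lines, 6 as reported, was 516 in DESeq2, 163 in limma voom, 67 without a low-count filter, 2 with a fold threshold of 1.5, 2 among genes of at least 1000 exonic bases, and 0 without the line block or with all 18 libraries. It was 13 without OVCAR-3, 3 without CAOV3 and 0 without SKOV3, and 0 to 311 with 1 replicate left out (311 without CAOV3 replicate 3). The set by line count was 2278 in voom, 2356 without OVCAR-3 and 974 without SKOV3. By line, voom gave 1573 genes in OVCAR-3 and 29 in CAOV3. Without 1 first-set replicate OVCAR-3 had 1403 to 1517 and CAOV3 28 to 39, and no filter gave 290 in CAOV3. Fitting both compounds together, without a set by compound term, gave 0 in OVCAR-3, 1122 in CAOV3 and 7474 in SKOV3. For GSK-J4 the count was 771 in DESeq2, 8 in voom, 94 without the filter, 3 without OVCAR-3, and 0 to 2 with 1 replicate left out. Set by compound gave 3 in DESeq2, 8 in voom and 5 without the filter.

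Signs turned for KDM6A (0.017 without SKOV3; in GSK-J4, -0.10 without OVCAR-3), PI16 (3.21 in GSK-J4 with DESeq2; 0.45 for set by compound in voom) and HNRNPA1L3 in set by compound (0.28 without CAOV3; -0.17 to 0.086 with 1 replicate left out). The cause was not tested. With the replicate block, set by compound called 0 genes. Deviations of same-numbered libraries from their group means over both sets correlated between compounds at -0.0731 to 0.0285 in OVCAR-3, 0.00956 to 0.163 in CAOV3 and 0.296 to 0.663 in SKOV3. These deviations include any set difference that both compounds share, so the numbers cannot decide whether same-numbered libraries were paired. They were not taken as a pairing in any line.

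With 1 second-set control library in each line, a difference by line rests on that library, and kit, library description and medium cannot be told apart. Values near 0 are limited by the uneven low counts.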
